A study of Mus musculus with 2 samples.

Results

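The genes described here are 10 genes of defence against reactive oxygen and of metal binding, chosen by name: the superoxide dismutases Sod1 and Sod2, the glutathione peroxidases Gpx1, Gpx3 and Gpx4, the peroxiredoxin Prdx1, the thioredoxin reductase Txnrd1, the haem oxygenase Hmox1 and the metallothioneins Mt1 and Mt2. They are 10 of 21216 gene identifiers in the count tables of 2 plates of single mouse muscle stem cells. All 10 had a row in the table of plate 2 and 9 in the table of plate 1, and Txnrd1 was not analysed on plate 1. The largest ratios lay between high glucose and freshly isolated cells, where Gpx3 was lower and Gpx1 was higher in high glucose on each of the 4 scales used: gene counts, TMM, median-of-ratios and spike-in counts.

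Superoxide dismutases turn superoxide into hydrogen peroxide, and glutathione peroxidases and peroxiredoxins then reduce peroxides with electrons that come from glutathione or thioredoxin. Haem oxygenase opens the haem ring and frees its iron, and metallothioneins are small cysteine-rich proteins that bind zinc and copper. Many of these genes respond to the transcription factor Nrf2, and metallothionein genes respond to the metal-sensing factor MTF1. Muscle stem cells rest in adult muscle next to the myofibre and start to divide once they are isolated and placed in growth medium.

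FACS placed single cells in the wells of 384-well plates, and their polyadenylated RNA was read with a modified CEL-Seq2 protocol, which tags the well and the end of each RNA. The galactose group held 121 cells after 96 h of culture with 10 mM galactose, and the low glucose group 120 cells after 96 h with 5 mM glucose, both on plate 2. The high glucose group held 113 cells after 96 h with 25 mM glucose, and the freshly isolated group, labelled quiescent, held 102 cells without culture, called fresh cells below, both on plate 1. The 3 media were otherwise alike, DMEM with 1 mM pyruvate, bovine and horse serum at 10% each, chick embryo extract at 0.05%, bFGF at 2.5 ng/ml and antibiotics at 1%. The labels give no strain, age or number of mice, each plate is 1 sample in the labels, and each condition was 1 pool of cells on 1 plate, so differences between conditions were compared without replicates and without a test.

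The pools of summed cells held 2035682 gene counts in galactose, 1734279 in low glucose, 887611 in high glucose and 284109 in fresh cells. Levels are counts scaled to a common pool size (CPM, per 1e6 gene counts), with exact Poisson 95% intervals, and ratios carry exact conditional 95% intervals, all of which cover counting error only. A gene was called higher or lower at a ratio of at least 1.5 in either direction with an interval that left out 1, among genes with a mean level of at least 10 CPM in the pools compared. The 6 plate rows that held each condition show the spread within a pool, and they are not replicates. No share of all genes with rows apart is given, so overlap of rows describes each named gene alone. Synthetic ERCC spike-in RNA gave a second scale, on which the median ratio of gene to spike-in counts per cell was 47.8 in galactose, 47.7 in low glucose, 57.0 in high glucose and 18.3 in fresh cells. All 9 markers of muscle stem cells and myoblasts on the list had counts in every condition, and summed to 1839 CPM in galactose, 1787 in low glucose, 1665 in high glucose and 6033 in fresh cells.

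On plate 1, 1 of the 9 measured genes was called higher in high glucose than in fresh cells, 4 were called lower and 4 were called neither, where 21.7% of 8882 measured genes were called higher and 13.4% lower. Gpx1 was the higher gene, and Gpx3, Hmox1, Mt1 and Mt2 were the lower ones. The median log2 ratio was -0.42 for the 9 genes and 0.34 for all measured genes. The choice of scale bore on this comparison more than on the others. Scaling by spike-in counts moved the median of all genes by 1.62 on the log2 scale, while TMM factors moved it by -0.25 and median-of-ratios factors by -0.29. Relative to spike-in counts, 6 of the 9 genes were called higher in high glucose and Gpx3 alone was called lower, where 82.8% of 8398 measured genes were called higher and 2.31% lower. Of all genes called, 61.9% were higher by CPM, 43.6% by TMM factors, 40.8% by median-of-ratios factors and 97.3% by spike-in counts.

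**Figure D1:**
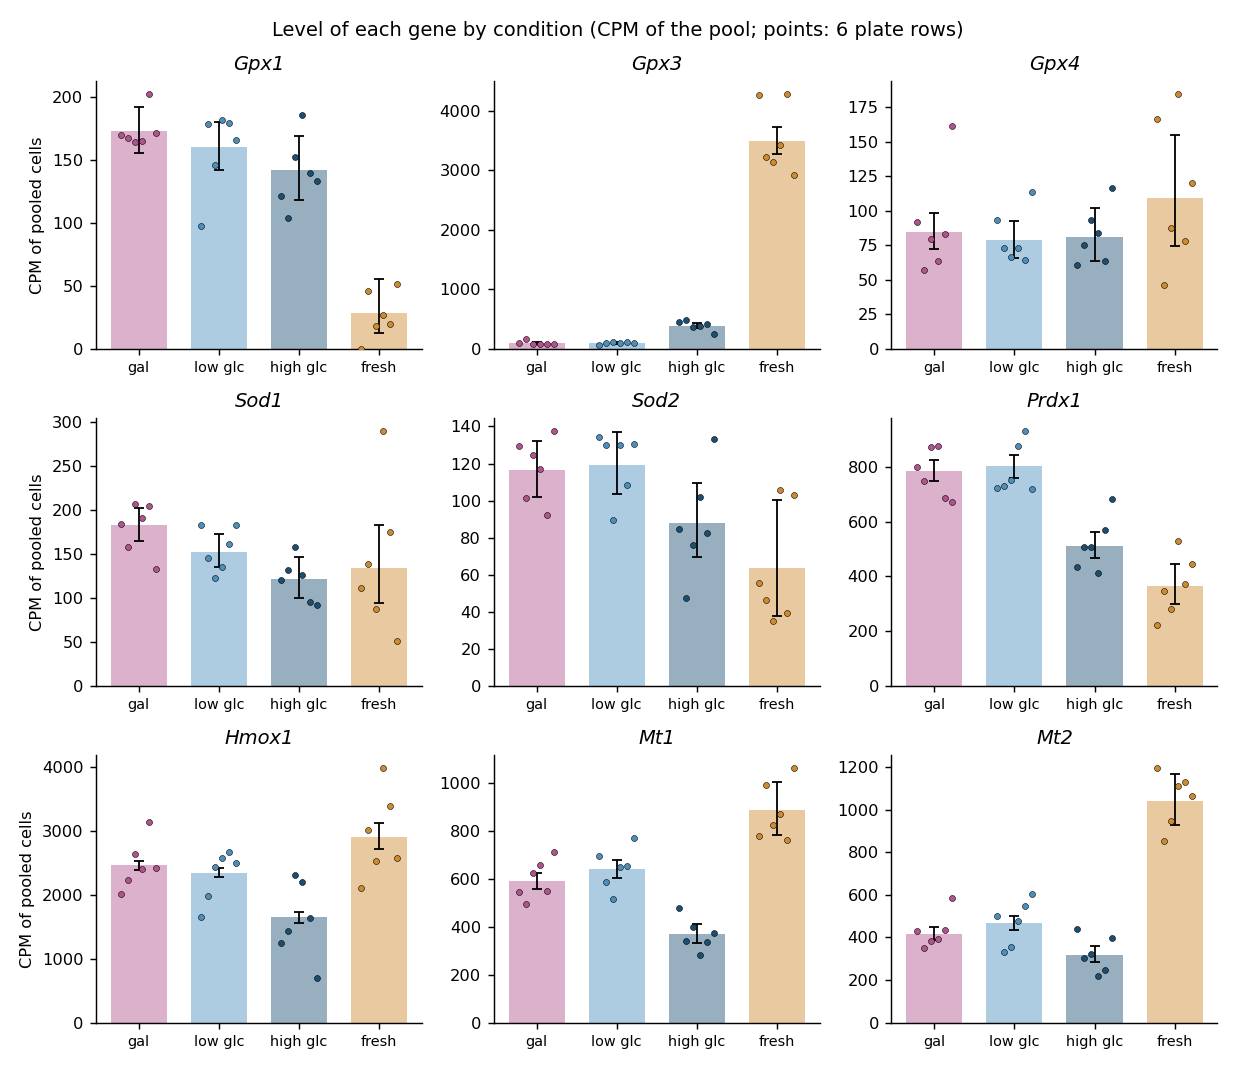
Level of 9 genes in each condition, in CPM of the pooled cells. Bars are pools, error bars exact Poisson 95% intervals and points the 6 plate rows of a condition; gal is galactose, low glc and high glc are the glucose media and fresh is freshly isolated cells. Gpx3 stands at 386 CPM in high glucose against 3499 CPM in fresh cells, and Gpx1 at 142 against 28.2 CPM; by spike-in scaling Gpx3 stays lower and Gpx1 higher, while Hmox1 and Mt1 turn to higher in high glucose.

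Sod1, the copper and zinc superoxide dismutase of the cytosol, had 183 CPM in galactose, 153 in low glucose, 122 in high glucose and 134 in fresh cells. Plate rows ran from 91.6 to 158 CPM in high glucose and from 51.4 to 290 CPM in fresh cells, so these groups overlapped, and galactose and low glucose rows overlapped too. The ratio of high glucose to fresh cells was 0.910 (0.623 to 1.35) by CPM and 2.79 (1.91 to 4.15) by spike-in counts, where the rows no longer overlapped. The last 650 bases of the Sod1 gene model overlap Scaf4 on the other strand, which had 21.1 to 51.8 CPM, and no source used here says whether counting used strand.

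Sod2, the manganese superoxide dismutase of mitochondria, had 116 CPM in galactose, 119 in low glucose, 87.9 in high glucose and 63.4 in fresh cells. Its rows overlapped between all neighbouring conditions in that order. The ratio of high glucose to fresh cells was 1.39 (0.823 to 2.46) by CPM and 4.26 (2.52 to 7.55) by spike-in counts.

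Gpx1, the widely expressed selenium-dependent glutathione peroxidase of cytosol and mitochondria, was at similar levels in the cultures and low in fresh cells. It had 173 CPM in galactose, 160 in low glucose, 142 in high glucose and 28.2 in fresh cells, the last from 8 counts in 8 of 102 cells. Rows ran from 104 to 186 CPM in high glucose and from 0 to 51.4 CPM in fresh cells, with no overlap. The ratio of high glucose to fresh cells was 5.04 (2.48 to 11.9), and 15.5 (7.61 to 36.6) by spike-in counts. With every cell thinned to 1000 counts the ratio was 4.10 and its interval, 0.848 to 39.0, no longer left out 1. Leaving out the wells with markers of another cell type gave 8.14 (3.10 to 30.4). Levels in the 3 cultures differed by less than the spread of their rows.

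Gpx3, the glutathione peroxidase that many tissues secrete into plasma, had the ratio farthest from 1 of the 9 genes by CPM. It had 91.4 CPM in galactose, 94.6 in low glucose, 386 in high glucose and 3499 in fresh cells. Rows ran from 70.9 to 161 CPM in galactose, 61.0 to 109 in low glucose, 242 to 481 in high glucose and 2928 to 4291 in fresh cells. Freshly isolated cells were thus highest and high glucose second, each apart from the next group in every row, while galactose and low glucose overlapped. Between high glucose and fresh cells the ratio was 0.110 (0.0974 to 0.125) by CPM and 0.339 (0.299 to 0.384) by spike-in counts, with no overlap of rows on either scale. Without the wells that held markers of another cell type it was 0.101 (0.0886 to 0.116).

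Per cell the same order appeared. Gpx3 was counted in 102 of 102 fresh cells, from 646 to 8893 CPM with a median of 3446 CPM. No galactose cell and no low glucose cell reached the lowest of these, the highest being 536 CPM in galactose and 504 CPM in low glucose. In high glucose 29 of 113 cells lay above the lowest fresh cell, the highest at 2930 CPM. High glucose cells therefore overlapped the lower range of fresh cells, but none reached their median. After thinning each cell to 1000 counts, Gpx3 was counted in 13.2% of galactose cells (exact binomial 95% interval 7.75 to 20.6), 14.2% of low glucose cells (8.47 to 21.7), 33.0% of high glucose cells (24.4 to 42.6) and 97.1% of fresh cells (91.6 to 99.4).

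The promoter window of Gpx3, shown as that of the gene with the ratio farthest from 1 by CPM, covers 250 bases before and 50 bases from the start, from RefSeq on GRCm38.p6 at chr11:54902604-54902903 on the plus strand. It holds no match on either strand to the antioxidant response core searched here (TGACNNNGC) or to the metal response core (TGCACNC or TGCGCNC), so it is all in lower case.
Gpx3: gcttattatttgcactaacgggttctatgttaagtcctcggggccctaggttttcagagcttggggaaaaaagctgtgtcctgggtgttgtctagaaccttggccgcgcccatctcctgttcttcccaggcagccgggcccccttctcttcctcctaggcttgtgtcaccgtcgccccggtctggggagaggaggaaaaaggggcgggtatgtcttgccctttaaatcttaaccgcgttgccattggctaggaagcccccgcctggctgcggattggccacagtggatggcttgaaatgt

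Gpx4, the glutathione peroxidase that reduces lipid peroxides in membranes, had 84.5 CPM in galactose, 78.4 in low glucose, 81.1 in high glucose and 109 in fresh cells. Its rows overlapped among all 4 conditions, from 46.1 to 185 CPM in fresh cells alone. Between high glucose and fresh cells the ratio was 0.743 (0.482 to 1.17) by CPM and 2.28 (1.48 to 3.60) by spike-in counts. Gpx4 was called lower in high glucose by TMM factors, at 0.624 (0.404 to 0.984), and by median-of-ratios factors, at 0.609 (0.394 to 0.960), so its call differed between scales. Pseudogenes of Gpx4 and of Prdx1 exist in the mouse genome, and no source used here says how reads shared with them were counted.

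Prdx1, a cytosolic peroxiredoxin that is kept reduced by thioredoxin, had 786 CPM in galactose, 803 in low glucose, 511 in high glucose and 366 in fresh cells. Rows ran from 413 to 683 CPM in high glucose and from 222 to 528 CPM in fresh cells, and overlapped. Between high glucose and fresh cells the ratio of 1.40 (1.13 to 1.75) lay under the 1.5-fold set for a call. It reached 1.56 (1.21 to 2.02) without the wells with markers of another cell type, and 4.29 (3.46 to 5.36) by spike-in counts, where rows did not overlap. Txnrd1, the cytosolic reductase that returns electrons to thioredoxin, had 3 counts in 2 of 120 low glucose cells and 0 counts in 121 galactose cells. Taking 3 counts as the most that a count of 0 allows, up to 2.48% of galactose cells could hold a count and the level could reach 1.47 CPM, which limits detection and not expression. No difference was detectable at this depth. The Txnrd1 gene model shares 1305 bases with Eid3 on the same strand, which had 6.88 CPM in galactose and 9.23 CPM in low glucose. It also overlaps Gm38560 and Gm47073 on the other strand. No source used here says how reads in shared bases were counted, so the low count of Txnrd1 may not reflect its level.

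Hmox1, the inducible haem oxygenase, was counted without thinning in 100% of galactose cells, 100% of low glucose cells, 95.6% of high glucose cells and 93.1% of fresh cells. Depth differs between these groups. With each cell thinned to 1000 counts the shares were 85.1%, 82.5%, 61.6% and 77.5% in the same order, so fresh cells then lay above high glucose. It had 2461 CPM in galactose, 2349 in low glucose, 1653 in high glucose and 2914 in fresh cells. The plate rows of high glucose were widely spread, at 1245, 1442, 2316, 2208, 1640 and 700 CPM for rows G to L, and they overlapped the fresh rows, which ran from 2111 to 3986 CPM. High glucose held the lowest row of all conditions. Between high glucose and fresh cells the ratio was 0.567 (0.520 to 0.618) by CPM and 1.74 (1.60 to 1.90) by spike-in counts, so the direction depended on the scale.

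**Figure D2:**
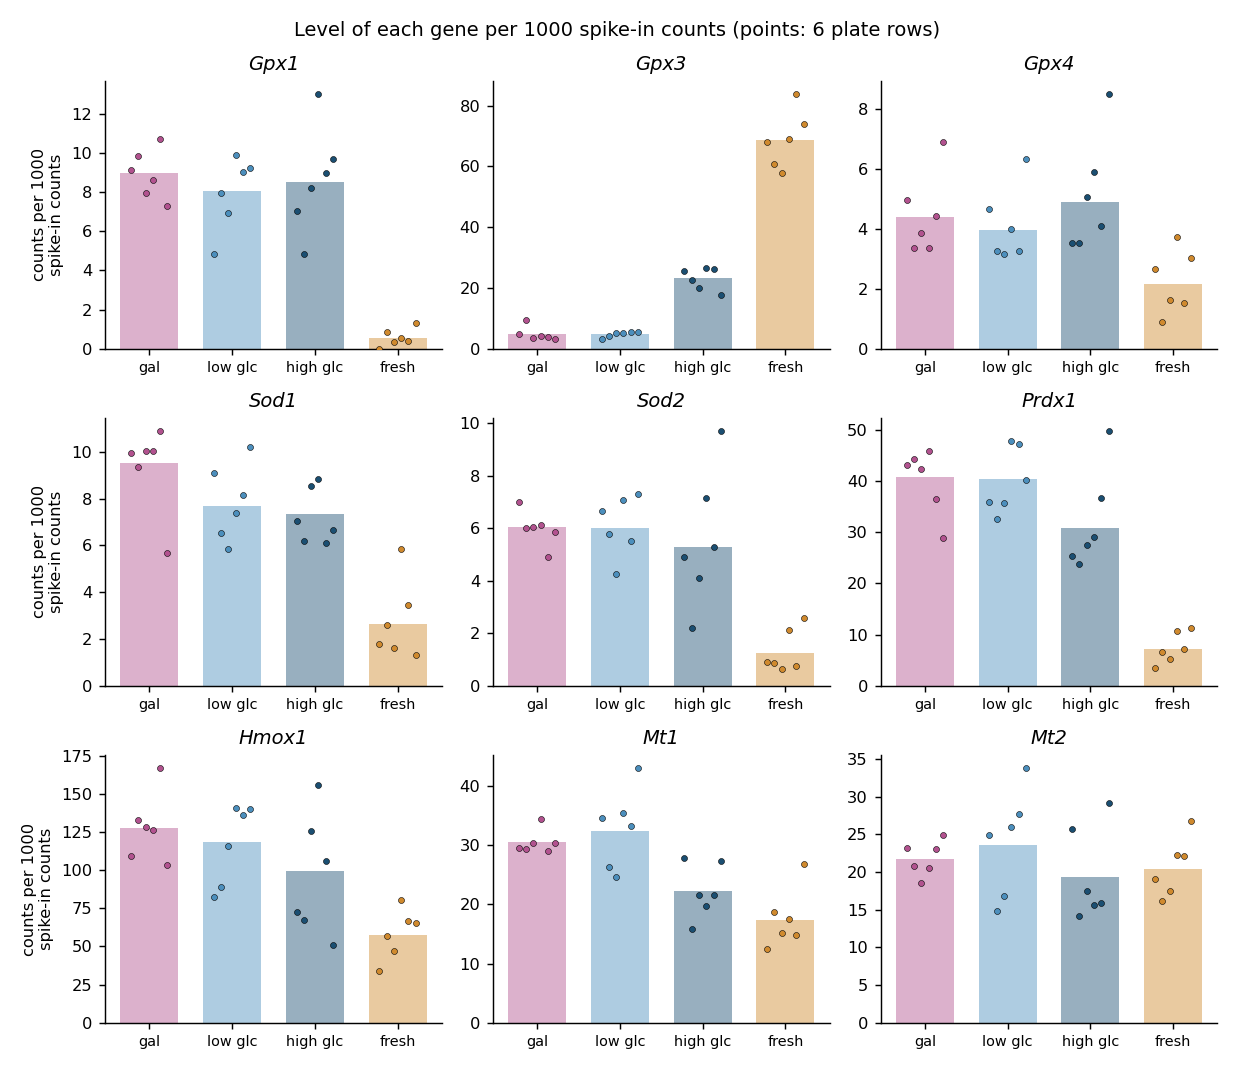
Level of the same 9 genes per 1000 spike-in counts. Bars are pools and points the 6 plate rows of a condition. On this scale the high glucose rows of Gpx3, 17.6 to 26.5, all lie below its fresh rows, 57.9 to 83.9. Hmox1 stands at 99.5 in high glucose against 57.2 in fresh cells, the reverse of its order in CPM.

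The metallothioneins Mt1 and Mt2, which lie next to each other on chromosome 8, were both lower in high glucose than in fresh cells by CPM, and neither was lower by 1.5-fold relative to spike-in counts. Mt1 had 589 CPM in galactose, 641 in low glucose, 370 in high glucose and 887 in fresh cells. Its rows ran from 281 to 477 CPM in high glucose and from 761 to 1062 CPM in fresh cells, with no overlap. The ratio was 0.417 (0.352 to 0.493) by CPM and 1.28 (1.08 to 1.51) by spike-in counts, so that its direction turned with the scale.

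Mt2 had 418 CPM in galactose, 469 in low glucose, 320 in high glucose and 1042 in fresh cells. Rows ran from 221 to 441 CPM in high glucose and from 852 to 1194 CPM in fresh cells, again apart. The ratio was 0.307 (0.260 to 0.363) by CPM and 0.942 (0.798 to 1.11) by spike-in counts, on which scale the rows overlapped. The antisense gene Gm45774 overlaps 749 bases of Mt2 and had 2.25 to 10.6 CPM. Relative to spike-in counts the 4 conditions lay close for Mt2, at 21.7 per 1000 in galactose, 23.6 in low glucose, 19.3 in high glucose and 20.5 in fresh cells.

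The promoter windows of Mt1 (chr8:94178839-94179138) and Mt2 (chr8:94172368-94172667), both on the plus strand of GRCm38.p6 and from RefSeq, are shown since metallothionein promoters are known for their metal response elements. Capitals mark matches on either strand to the metal response core (TGCACNC or TGCGCNC) and, in Mt2 alone, 1 match to the antioxidant response core (TGACNNNGC), TGACTCAGC, which overlaps none of the others. Mt1 holds 3 metal response matches and Mt2 holds 4. Of 32851 mouse promoter windows of this length, 25.7% hold at least 1 such match, 1.97% hold 3 or more and 0.517% hold 4 or more, and 12.4% hold the antioxidant core. Letters that match are a description of the window and not a measured binding site.
Mt1: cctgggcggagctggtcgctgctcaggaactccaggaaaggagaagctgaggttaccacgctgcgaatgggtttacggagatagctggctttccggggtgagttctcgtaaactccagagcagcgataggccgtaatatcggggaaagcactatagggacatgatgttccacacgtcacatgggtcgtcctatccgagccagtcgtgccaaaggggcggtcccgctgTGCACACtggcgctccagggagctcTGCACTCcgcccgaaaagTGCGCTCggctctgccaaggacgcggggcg
Mt2: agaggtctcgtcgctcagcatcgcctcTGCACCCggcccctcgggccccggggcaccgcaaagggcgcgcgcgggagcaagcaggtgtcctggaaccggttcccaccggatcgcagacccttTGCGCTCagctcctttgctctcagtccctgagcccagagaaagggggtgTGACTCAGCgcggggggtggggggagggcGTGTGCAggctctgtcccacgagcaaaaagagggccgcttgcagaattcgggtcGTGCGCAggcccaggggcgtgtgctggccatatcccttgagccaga
Windows were given for 9 of the 10 genes. Prdx1, Sod1 and Txnrd1 each held 1 antioxidant core match in a window, and Gpx1, Gpx4 and Sod2 held neither core.

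Other features of the cells moved with this comparison. Immediate early and dissociation genes, with 9 of 10 counted in high glucose (Fos at 0) and 10 of 10 in fresh cells, summed over plate rows to between 1795 and 3592 CPM in high glucose and between 9971 and 18333 CPM in fresh cells. Of 8 fibro-adipogenic markers on the list, 6 were found by symbol in the count tables, and 5 of these were counted in each group. These markers summed to 105 to 207 CPM in high glucose and 645 to 1593 CPM in fresh cells, and Dcn had no row on this plate. Smooth muscle and pericyte markers, with 6 of 7 counted in each group and Kcnj8 at 0, summed to 152 to 293 CPM in high glucose and 317 to 1051 CPM in fresh cells. All 7 endothelial markers were counted in each group, at 30.2 to 108 CPM in high glucose and 52.8 to 263 CPM in fresh cells. Gpx3, Hmox1, Mt1 and Mt2 kept ratios of 0.101, 0.558, 0.407 and 0.310 without the wells that held 3 or more markers of another type. The part of the immediate early genes in these ratios was not tested.

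**Figure D3:**
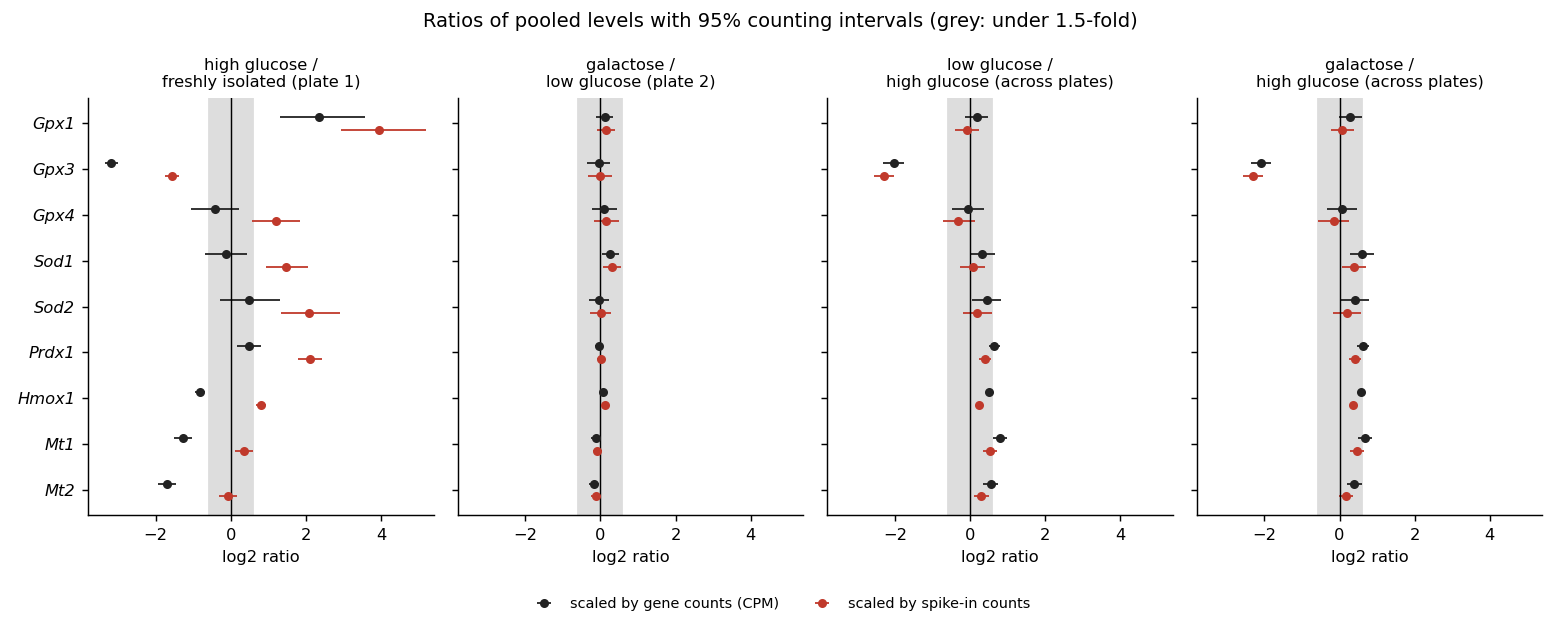
Log2 ratio of pooled levels for 9 genes in 4 comparisons, with 95% counting intervals. Black points are scaled by gene counts and red points by spike-in counts, and the grey band marks ratios under 1.5-fold. In high glucose over fresh cells Gpx1, Gpx3, Sod2, Prdx1 and Mt2 keep their side on both scales, and Gpx4, Sod1, Hmox1 and Mt1 change side. The interval of Sod2 by gene counts and that of Mt2 by spike-in counts hold a ratio of 1. In galactose over low glucose all 9 genes lie inside the band on both scales.

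On plate 2, galactose was set against low glucose, the comparison of sugars within a plate. None of the 9 measured genes was called higher or lower, where 1.53% of 8689 measured genes were called higher and 1.25% lower. The rows of the groups overlapped for each of the 9. The median log2 ratio was -0.03 for the 9 genes and 0.01 for all measured genes, and of all genes called 55.0% were higher by CPM and 69.2% by spike-in counts. The largest ratio was that of Sod1, with 183 CPM in galactose and 153 CPM in low glucose, a ratio of 1.20 (1.02 to 1.41). Mt2 had 418 CPM in galactose and 469 CPM in low glucose, a ratio of 0.892 (0.809 to 0.983), which turned to 1.41 (0.937 to 2.13) with cells thinned to 1000 counts. Mt1 had 589 CPM in galactose and 641 CPM in low glucose, a ratio of 0.919 (0.846 to 0.998). Hmox1 had a ratio of 1.05 (1.01 to 1.09), which was 0.991 (0.948 to 1.04) without galactose plate row K and 1.00 (0.958 to 1.04) without low glucose plate row A. For Gpx4 the ratio of 1.08 turned to 0.744 (0.277 to 1.92) with thinned cells. For Gpx1, Gpx3, Gpx4, Sod2 and Prdx1 the intervals by CPM held 1 and lay between 0.779 and 1.36.

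Low glucose and galactose could be set against high glucose only across plates, so that medium and plate cannot be told apart, and both comparisons share the high glucose pool. Gpx3 was the lower gene in both, at 94.6 CPM in low glucose and 91.4 CPM in galactose against 386 CPM in high glucose. Its ratio was 0.245 (0.202 to 0.296) for low glucose and 0.236 (0.197 to 0.283) for galactose, its rows did not overlap, and by spike-in counts the ratios were 0.205 and 0.204. Mt1, at 641 CPM in low glucose and 589 CPM in galactose against 370 CPM in high glucose, was called higher in both, with ratios of 1.74 (1.53 to 1.97) and 1.59 (1.41 to 1.81), and its rows did not overlap in either. Prdx1 was called higher in both as well, at 1.57 (1.41 to 1.75) in low glucose, where rows did not overlap, and 1.54 (1.38 to 1.71) in galactose, where they did. Sod1 was called higher in galactose only, at 1.51 (1.21 to 1.88), and its ratio in low glucose was 1.26 (1.00 to 1.59).

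The higher calls of Prdx1 in both comparisons, and of Sod1 and Mt1 in galactose, had intervals that held the threshold of 1.5. That of Mt1 in low glucose, 1.53 to 1.97, lay above it. On the spike-in scale 2.86% of 9276 measured genes were called higher and 21.9% lower in low glucose, and 4.12% of 9305 were called higher and 20.6% lower in galactose; Gpx3 was the 1 member called lower in each. None of the higher calls remained on that scale, with Mt1 at 1.45 in low glucose and 1.37 in galactose, Prdx1 at 1.31 and 1.32, and Sod1 at 1.30 in galactose. In low glucose against high glucose 2 of 9 genes were called higher and 1 lower, where 7.98% of 8852 measured genes were called higher and 10.7% lower. In galactose against high glucose 3 were called higher and 1 lower, where 9.46% of 8894 measured genes were called higher and 12.1% lower. Median log2 ratios were 0.44 for the 9 genes and -0.03 for all genes in low glucose, and 0.40 and -0.01 in galactose. Spike-in scaling moved the median of all genes by -0.26 in low glucose and -0.22 in galactose, and TMM factors by 0.10 and 0.12. Of all genes called in low glucose against high glucose, 42.6% were higher by CPM, 59.8% by TMM factors, 52.7% by median-of-ratios factors and 11.6% by spike-in counts, and in galactose 44.0%, 62.1%, 51.3% and 16.7% on the same scales. Hmox1 and Mt2 stayed under the 1.5-fold set for a call in both, Hmox1 with 1.42 in low glucose and 1.49 in galactose and Mt2 with 1.47 and 1.31, and Gpx1, Gpx4 and Sod2 were called neither. By TMM factors Hmox1 was called higher in low glucose, at 1.53, and in galactose, at 1.61, and Mt2 in low glucose, at 1.57. With cells thinned to 1000 counts Hmox1 was called higher in low glucose, at 1.70 (1.39 to 2.09), and so was Sod2, at 2.80 (1.06 to 8.62). Among the genes called higher in galactose with thinned cells was Mt2, at 1.66 (1.07 to 2.61). Hmox1 in low glucose was also called higher without high glucose plate row I, at 1.57, or J, at 1.54, and was at 1.30 without row L. Mt2 in low glucose was called higher without high glucose plate row G, at 1.60, or L, at 1.52. Without galactose plate row J, which took Prdx1 to 1.497 and Sod1 to 1.490, Mt1 alone was called higher in galactose, a call that was lost with thinned cells, at 1.42 (0.961 to 2.11). Sod1 was at 1.45 (1.16 to 1.82) in galactose without the wells with markers of another cell type.

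Markers that moved with these comparisons included the immediate early and dissociation list, which summed to 1346 CPM in low glucose and 1303 CPM in galactose against 2240 CPM in high glucose, with 9 of 10 counted in each and Fos at 0. Smooth muscle and pericyte markers summed to 73.8 CPM in low glucose (5 of 7 counted) and 62.4 CPM in galactose (4 of 7, Myh11 and Pdgfrb at 0) against 230 CPM in high glucose (6 of 7). Fibro-adipogenic markers summed to 40.9 CPM in low glucose (4 of 6 counted, Col1a1 and Ly6a at 0) and 31.4 CPM in galactose (2 of 6, Col1a2 and Dcn at 0 too). In high glucose they summed to 143 CPM (5 of 6). Endothelial markers summed to 8.65 CPM in low glucose (5 of 7 counted, Cdh5 and Emcn at 0) and 7.86 CPM in galactose (4 of 7, Fabp4 at 0 too) against 67.6 CPM in high glucose (7 of 7). Gpx3 kept its ratio without the wells that held 3 or more markers of another type, at 0.257 in low glucose and 0.248 in galactose. The part of the immediate early genes was not tested.

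Single cells showed how the members varied within a condition. After thinning to 1000 counts, which left out 1 high glucose cell, the variance of Hmox1 over cells was 2.44 times its mean in galactose, 1.94 in low glucose, 2.11 in high glucose and 3.55 in fresh cells. The median of this ratio over genes with a thinned mean of at least 0.05 was 0.970 in galactose, 0.958 in low glucose, 0.973 in high glucose and 1.02 in fresh cells. Hmox1 exceeded 99.8%, 99.7%, 99.0% and 99.5% of these genes in the same order of conditions. No other member exceeded 1.27 in any condition. This ratio can rise with the mean, and genes were not matched for it. Thinned means of Hmox1 were 2.63, 2.31, 1.36 and 3.10 counts in that order, and most members had lower means. Gpx3 in fresh cells, with a mean of 3.48, had a ratio of 1.16. Whether Hmox1 varied more than the other members for its level was not tested. In fresh cells Hmox1 ran from 0 to 16328 CPM with a median of 2138 CPM, and in high glucose from 0 to 9830 CPM with a median of 910 CPM. The lowest galactose cell had 432 CPM and the lowest low glucose cell 161 CPM, so that Hmox1 was counted in every cell of both.

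**Figure D4:**
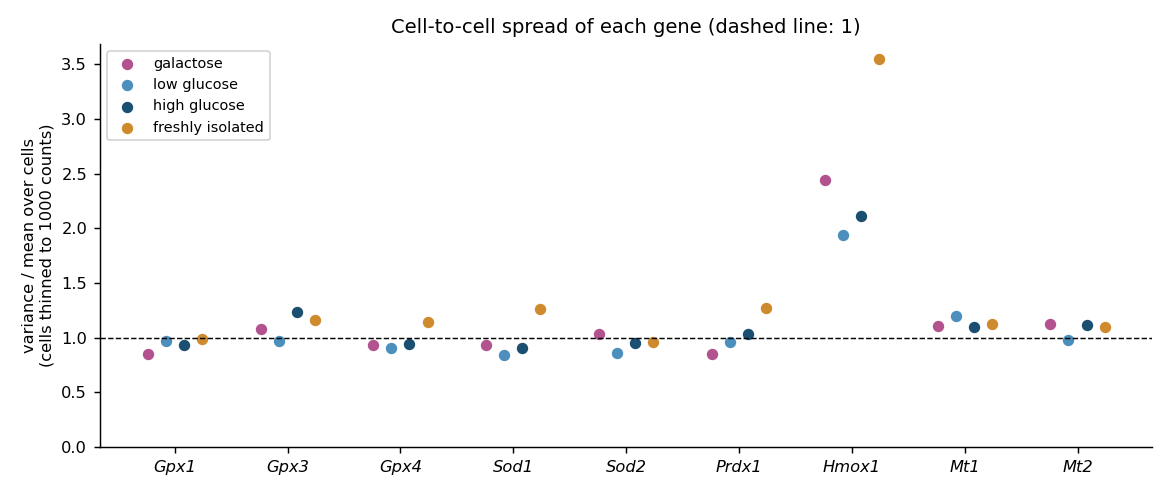
Variance over mean across cells for 9 genes, after thinning each cell to 1000 counts, by condition; the dashed line marks 1. Hmox1 lies between 1.94 and 3.55 in the 4 conditions, and the 8 other genes lie at or below 1.27.

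Shares of cells with a count were set side by side at equal depth. Thinned to 1000 counts, Mt2 was counted in 37.2% of galactose cells, 30.8% of low glucose cells, 24.1% of high glucose cells (16.5 to 33.1) and 70.6% of fresh cells (60.7 to 79.2). Mt1 was counted in 41.3%, 45.8%, 32.1% (23.6 to 41.6) and 50% (39.9 to 60.1) of cells in the same order, and the last intervals overlapped. Prdx1 was counted in 57.0% of galactose cells, 55.8% of low glucose cells, 33.0% of high glucose cells (24.4 to 42.6) and 24.5% of fresh cells (16.5 to 34.0). The shares of Mt2 and Prdx1 in galactose and low glucose ran against their CPM, so no order was read between these media. Without thinning, Prdx1 was counted in 98.3%, 100%, 86.7% and 55.9% of cells in that order, and Mt2 in 95.04%, 90%, 67.3% and 88.2%. Across cells of a condition the correlation of Mt1 with Mt2 in log2(CPM + 100) was 0.29 over 121 galactose cells, 0.48 over 120 low glucose cells, 0.26 over 113 high glucose cells and 0.35 over 102 fresh cells. These cells share a plate and differ in depth, and after thinning the values lay between -0.02 and 0.20.

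**Figure D5:**
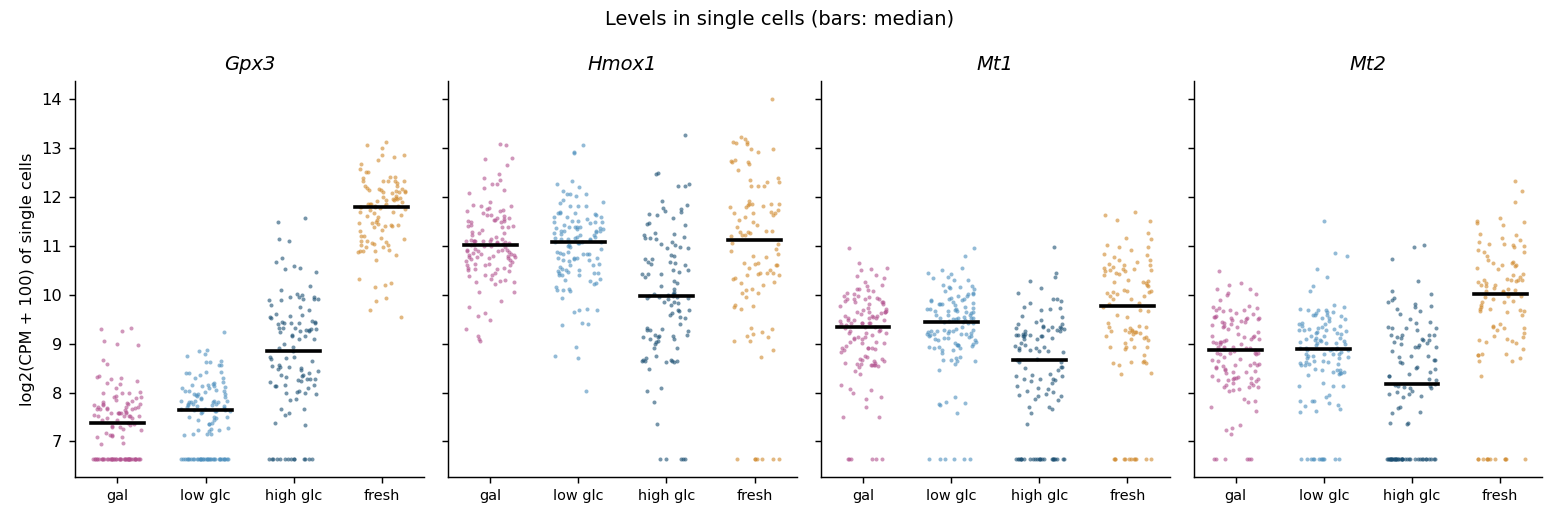
Levels of Gpx3, Hmox1, Mt1 and Mt2 in single cells, as log2(CPM + 100), by condition. Points are cells and black bars medians; cells with no count form the row of points at the bottom. No galactose or low glucose cell reaches the lowest fresh cell for Gpx3, at 646 CPM, and 29 of 113 high glucose cells do.

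Likeness was measured over the 24 pools of a condition and plate row, as the Pearson correlation of log2(CPM + 10) among 3964 genes with a mean of at least 50 CPM, and is given as a description. These pools come from 2 plates, and the 6 rows of a condition share their cells' source. The gene most like Gpx3 was Stat3, at 0.99, with 111 CPM in galactose, 115 in low glucose, 265 in high glucose and 1492 in fresh cells, followed by Erfe, at 0.98. For Mt1 it was Mt2, at 0.86, and for Mt2 it was Mbd2, at 0.90. The genes most like the others were Rars for Gpx1 (0.95), Cxcl12 for Prdx1 (0.91), Abcc1 for Sod2 (0.87), Mrpl1 for Sod1 (0.83), Gm28661 for Hmox1 (0.77) and Ubn2 for Gpx4 (0.71).

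The wider antioxidant and metal system was followed in 6 lists of 85 genes, of which 77 were found by symbol in the count tables. In high glucose against fresh cells 57 were measured, and 14 were called higher, 13 lower and 30 neither, where 21.7% of all measured genes were called higher and 13.4% lower. These shares are also the background of the counts for the single lists that follow. By spike-in counts, where 82.8% of all measured genes were higher and 2.31% lower, 40 list genes were higher and 1, the zinc and iron importer Slc39a14, was lower. Slc39a14 had 167 CPM in high glucose and 1105 CPM in fresh cells, a ratio of 0.151 by CPM (0.123 to 0.184) and 0.463 by spike-in counts.

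Among genes of Nrf2 control, haem and iron, 5 of 11 were higher and 5 lower. The small Maf proteins Mafk and Maff, partners of Nrf2 on DNA, had ratios of 0.250 and 0.264 by CPM and stayed below 1 by spike-in counts, at 0.767 and 0.811. Fth1, the heavy chain of ferritin, had 3138 CPM in high glucose and 1390 CPM in fresh cells, a ratio of 2.26. The median log2 ratio of that list was 0.16, against 0.34 for all genes.

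In the thioredoxin and glutaredoxin list 2 of 11 were higher and 2 lower, with a median of 0.18. Glrx3, a glutaredoxin of iron-sulphur handling, had a ratio of 3.94 (2.47 to 6.67). Srxn1, sulfiredoxin, which restores overoxidised peroxiredoxins, had 0.345 (0.278 to 0.429) by CPM and 1.06 by spike-in counts. Other peroxide and superoxide enzymes had 2 of 8 higher and 1 lower, with a median of 0.67: Prdx6 was at 1.85, and Sod3, the secreted dismutase, at 0.508 by CPM and 1.56 by spike-in counts.

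Genes of glutathione synthesis and use had 3 of 13 higher and 2 lower, with a median of -0.35. The glutathione transferase Gsto1 was at 1.88, and Gstm1 was at 0.536 by CPM and 1.64 by spike-in counts. Of 6 measured metal handling genes, Mtf1, the metal-sensing factor, was higher at 2.56 (1.09 to 7.32), Slc39a14 was lower, and 4 were neither, with a median of -0.35. Of 8 measured selenoprotein genes 1 was higher and 2 lower, with a median of -0.07: Selenop, the secreted selenium carrier, was at 0.192 by CPM and 0.589 by spike-in counts, and Selenok at 0.489 by CPM and above 1 by spike-in counts.

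In galactose against low glucose 1 of 60 measured list genes was called lower and 0 higher, where 1.25% of all measured genes were called lower and 1.53% higher. It was Osgin1, a target of Nrf2, with 22.1 CPM in galactose and 37.5 CPM in low glucose and a ratio of 0.590 (0.394 to 0.876). Across plates 13 of 60 list genes were higher and 4 lower in low glucose than in high glucose, where 7.98% of all measured genes were higher and 10.7% lower. In galactose against high glucose 13 of 61 were higher and 5 lower, where 9.46% of all measured genes were higher and 12.1% lower. Thioredoxin, Txn1, was at 427 CPM in low glucose and 417 CPM in galactose against 217 CPM in high glucose, with ratios of 1.97 and 1.92 by CPM and 1.64 and 1.65 by spike-in counts. The glutaredoxin Glrx5 was at 2.31 and 2.26 in the same order, and 1.94 in both by spike-in counts. Gstm2 was lower, at 0.114 in low glucose and 0.218 in galactose. Catalase, Cat, which breaks down hydrogen peroxide, had 91.7 CPM in low glucose against 50.7 CPM in high glucose, and Gpx8, a glutathione peroxidase of the endoplasmic reticulum, had 91.9 CPM in galactose against 40.6 CPM in high glucose.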

How the data were processed

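RNA was measured in single mouse muscle stem cells by a modified CEL-Seq2 protocol, per the labels. The authors deposited raw counts per gene and well for 2 plates, whole numbers with no normalization, and a deposited well sheet that gave the condition of each of 457 wells as text labels. Not given in the sources used here are the aligner, the counter, the genome build, the annotation, the strand setting and whether UMIs were collapsed. EdgeR is named in the submitters' processing notes, with neither version nor role. Each condition was 1 pool of cells on 1 plate, and nothing in the labels says how many mice it came from, so p-values between conditions were not computed.

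Wells with at least 500 gene counts and 250 genes were kept, which dropped 1 high glucose well with 8 counts and left 456. Median gene counts per cell were 14496 in galactose, 13371 in low glucose, 6747 in high glucose and 2536 in fresh cells. The plates used 200 well positions in common, so these barcodes name different wells, and no doublet caller was run. Symbols came from GENCODE M21 for 21132 of 21216 identifiers (99.6%), and identifiers without one held 0.211% of counts. A gene with no row in a plate's table has no value there, and no measured gene in a comparison lacked a row. On plate 1 freshly isolated cells filled rows A to F and high glucose rows G to L, and on plate 2 low glucose filled A to F and galactose G to L, so row and condition cannot be told apart.

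Kept wells were summed per condition into a pool and scaled to CPM by gene counts, with 68 spike-in species left out. Log2 ratios used a pseudocount of 1 CPM. A promoter window was searched on both strands. Thinning used a fixed random seed of 1. The steps were tested on simulated data. Alternatives were TMM (edgeR 4.0.16, R 4.3.3), median-of-ratios and spike-in scaling, equal weight per cell, other minimums (2000 counts or none per well, 50 CPM or none per gene), a call at 2-fold, thinning, mitochondrial genes left out of the total, wells with 3 or more markers of another cell type left out, and each plate row left out. Python 3.11.15, numpy 2.4.6, pandas 2.3.3 and scipy 1.17.1 were used. The genes, lists, tests and alternatives were chosen with earlier results of these data known. All 10 genes are named, and of each list, per comparison, up to 2 called genes with the interval bound farthest from 1 and the gene with the most counts were eligible to be named, and of likeness the closest gene or the closest 2.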

Additional observations from a re-analysis of the deposited data

How the results depend on the processing

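No paired analysis was possible because each condition was 1 pool of cells on 1 plate and the labels give no replicate numbers. In high glucose against fresh cells, scaling by spike-in counts turned 4 ratios round, to 2.28 for Gpx4, 2.79 for Sod1, 1.74 for Hmox1 and 1.28 for Mt1, and gave 6 genes higher and 1 lower in place of 1 and 4. The number higher was 0 after thinning to 1000 counts, which loses the Gpx1 call through fewer counts, and 2 without wells with markers of another cell type or with equal weight per cell, the second gene being Prdx1. For the other lists in that comparison, TMM factors gave 9 higher and spike-in counts gave 40 higher and 1 lower, in place of 14 and 13. Of all measured genes, 13.9% were higher by TMM factors, 7.77% after thinning and 19.7% without wells with markers of another cell type. By spike-in counts 82.8% were higher and 2.31% lower. Calls by equal weight per cell, here and below, rest on the 1.5-fold ratio alone with no interval, a looser rule than for the other calls. No share of all genes is given for them.

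In low glucose against high glucose 4 genes were higher by TMM factors and by thinning, in place of 2. Equal weight per cell also gave 4, by the ratio alone, and spike-in counts or a call at 2-fold gave 0. Of all measured genes, 11.6% were higher by TMM factors, 2.68% by thinning, 2.86% by spike-in counts and 2.85% at 2-fold. In galactose against high glucose 0 were higher by spike-in counts or at 2-fold, in place of 3, and leaving out each plate row gave 1 to 4. There 4.12% of all measured genes were higher by spike-in counts and 3.54% at 2-fold, and no share is given for pools without a plate row. In the other lists, low glucose had 1 lower by TMM factors or at 50 CPM, and 5 higher and 10 lower by spike-in counts. Of all measured genes, 7.77% were lower by TMM factors and 9.47% at 50 CPM, and 2.86% were higher and 21.9% lower by spike-in counts. Galactose had 3 lower by TMM factors or at 50 CPM and 13 by spike-in counts, where 8.42%, 11.2% and 20.6% of all measured genes were lower. Galactose against low glucose had 0 lower at 50 CPM, where 0.175% of all measured genes were lower. Other than the construction named, the cause was not tested.

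The median share of cells with a count over 9 genes, 20.7% in galactose, 16.7% in low glucose, 24.1% in high glucose and 24.5% in fresh cells at 1000 counts, moved with depth. It was 10.7%, 8.33% and 14.2% in the 3 cultures at 500 counts, 30%, 30.8%, 38.9% and 57.3% in the 4 conditions at 2000 counts, and 86.8%, 80.8%, 67.3% and 55.9% without thinning. Thinning to 2000 counts left out 1 galactose, 5 high glucose and 20 fresh cells with fewer counts, so those shares are not for the same cells. The correlation of Mt1 with Mt2 over thinned cells was 0.066 in galactose, -0.017 in low glucose and 0.081 in fresh cells. Of 864 values of single genes under an alternative, 789 kept their call or moved within their interval, 24 gained a call and 23 lost one. The 789 do not measure robustness. Of the 864, 432 came from leaving out 1 plate row, which keeps most cells of the pool. The other minimums of CPM leave each ratio and interval unchanged by construction, and a call at 2-fold can only remove a call. A further 24 moved out of their interval with no call counted, and 4 turned round with a call, those by spike-in counts named above. Values by equal weight per cell have no interval of their own, so calls gained or lost there are not among the 24 and 23. Another 30 values crossed a ratio of 1 with no call counted on either side, among them Mt2 and Gpx4 in galactose against low glucose with thinned cells, at 1.41 and 0.744. By TMM and median-of-ratios factors Gpx4 was called lower in high glucose than in fresh cells. Freshly isolated cells had the fewest counts, and Gpx1 rests there on 8.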
